A study of Mus musculus with 7 samples.

Results

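The semaphorin, ephrin, Slit and netrin guidance genes were followed in cells sorted from the resting and the growing mouse hair follicle. Members were the rows of the gene table whose symbol begins as a semaphorin (Sema), plexin (Plxn), neuropilin (Nrp1, Nrp2), ephrin (Efna, Efnb), Eph receptor (Epha, Ephb), Slit, Robo, netrin (Ntn) or Unc5 gene, and 56 of 15415 rows met that rule. They comprised 29 ligands, 26 receptors and Unc50, which shares only its first letters with the Unc5 receptors and encodes no netrin receptor. RNA came from live, CD45-negative cells of back skin epidermis, sorted by a green fluorescent protein that reports Lgr5, a receptor that marks hair follicle stem cells. Mice were C57Bl6 x B10D2 crosses whose fur was removed with depilatory cream before the skin was trypsinised. The 3 Telogen libraries (resting phase) came from mice 45 days old, and the 4 Anagen libraries (growth phase) from mice 35 days old, so age and phase cannot be told apart. The labels do not tell single mice from pools, and the p-values below therefore measure spread between libraries that may be technical in part.

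These genes encode 4 families of guidance cues and their receptors, best known from growing axons and also used by epithelia. Secreted class 3 semaphorins bind neuropilins paired with plexins (Sema3e binds plexin D1 directly), whereas the other semaphorins here are tied to the membrane and bind plexins, which act on small GTPases of the actin cytoskeleton. Ephrins are held on the cell surface and activate Eph receptor tyrosine kinases on neighbouring cells, Slits activate Robo receptors, and netrins bind Dcc, neogenin and Unc5 receptors. In skin these systems are known from keratinocyte adhesion and migration and from the nerves and vessels around the follicle.

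Total counts were 5097457 to 6453337 in Telogen and 13719893 to 17042690 in Anagen, so depth also goes with phase. A count of 3, used as the floor here, corresponds to 0.480 to 0.594 CPM in Telogen and 0.165 to 0.216 CPM in Anagen, where CPM is the read count per 1000000 of the TMM-scaled library total. Lgr5 itself was at 446 to 473 CPM in Telogen and 24.9 to 82.7 CPM in Anagen. Of 7 bulge stem cell markers, 5 fell and 2 rose, and their sum was 10479.5 to 14298 CPM in Telogen against 2873 to 3689 CPM in Anagen. Outer root sheath and companion layer markers (5 of 5 rose) summed to 312 to 341 CPM in Telogen and to 3685 to 4313 CPM in Anagen. All 5 markers of the epidermis between follicles fell, from a sum of 719 to 1273 CPM to one of 26.3 to 39.7 CPM. Hair matrix and shaft markers (4 of 6 tested rose) summed to 102 to 124 CPM in Telogen and 315 to 358 CPM in Anagen, and melanocyte markers (1 of 4 tested rose, 1 fell) to 166 to 319 and 19.6 to 24.7 CPM. Most of the Telogen melanocyte sum was Mitf, whose mean fell from 211 to 8.04 CPM, while Pmel rose from 4.63 to 10.7 CPM. Fibroblast markers set Anagen 1 and Anagen 2 apart: 7 markers summed to 1076 and 1518 CPM there, to 82.4 and 103 CPM in Anagen 3 and 4, and to 77.1 to 106 CPM in Telogen, where Dcn and Lum had 0 counts. Of these 7 markers 5 rose and 1 fell. Dermal papilla markers (1 of 3 tested rose, 2 fell) summed to 22.2 to 46.2 CPM in Telogen and 1.0 to 3.53 CPM in Anagen. Hhip made up most of their Telogen sum, and its mean fell from 29.3 to 0.657 CPM. Pericyte and smooth muscle markers (2 of 3 tested rose, 1 fell) summed to 47.6 to 78.002 and 19.7 to 44.5 CPM. Most of that Telogen sum was Cspg4, whose mean fell from 65.4 to 5.62 CPM. Acta2 rose from 0.502 to 20.4 CPM and Tagln from 1.87 to 7.70 CPM. Schwann cell and neural crest markers (2 of 5 tested rose, 1 fell) summed to 18.3 to 26.4 and 26.9 to 51.2 CPM, and Merkel cell markers to 0 and 0.143 to 1.87 CPM. Leukocyte markers summed to 1.42 to 27.9 CPM in Telogen and 0 to 0.662 CPM in Anagen, and endothelial markers to 0 to 2.49 and 2.16 to 10.6 CPM. The part of these cell types in the results below was not tested, except that counts are given without Anagen 1 and Anagen 2.

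Guidance transcripts changed in both directions, with more rises than falls. Of the 56 members 45 were tested, of which 26 rose, 7 fell and 12 were not past the threshold (an adjusted p of 0.05). Without Unc50, which was among the falls, 26 of 44 tested members rose and 6 fell (72.7% passed, median log2 fold change 1.21). Of all 12266 genes tested, 49.5% passed in either direction by the same rule, 25.8% rising and 23.7% falling. The share of tested members that passed was 73.3%, and their median log2 fold change was 1.17, against 0.09 over all genes (0.03 with DESeq2's size factors). Both values include 13 members that reached the level of the filter on low counts in fewer than 3 libraries of their lower group. Of these 13 members 4 did not pass the test. Efnb3 and Ntn3, both among the 4, passed the filter only with libraries of both groups together. The 9 that passed were Ephb1, Ntn1, Ntn4, Plxnd1, Sema3b, Sema3d, Sema3f, Sema4d and Sema6a. These 9 entered the test only through their level in the group where they were higher. Of the other 32 tested members 24 passed, and no share over all genes is given under the same restriction. Without Anagen 1 and Anagen 2, where fewer libraries are left, 16 members rose and 7 fell. No share over all genes is given for that fit. With an offset for gene length, Efna5, Ephb1, Plxnb1, Plxnd1, Robo2 and Sema5a no longer passed, while Efnb2 and Epha4 passed as lower in Anagen. Among ligands 15 of 26 tested rose and 3 fell, and among receptors 11 of 18 rose and 3 fell. In sorted bulk RNA, fewer cells of a type and less RNA per cell cannot be told apart.

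**Figure D1:**
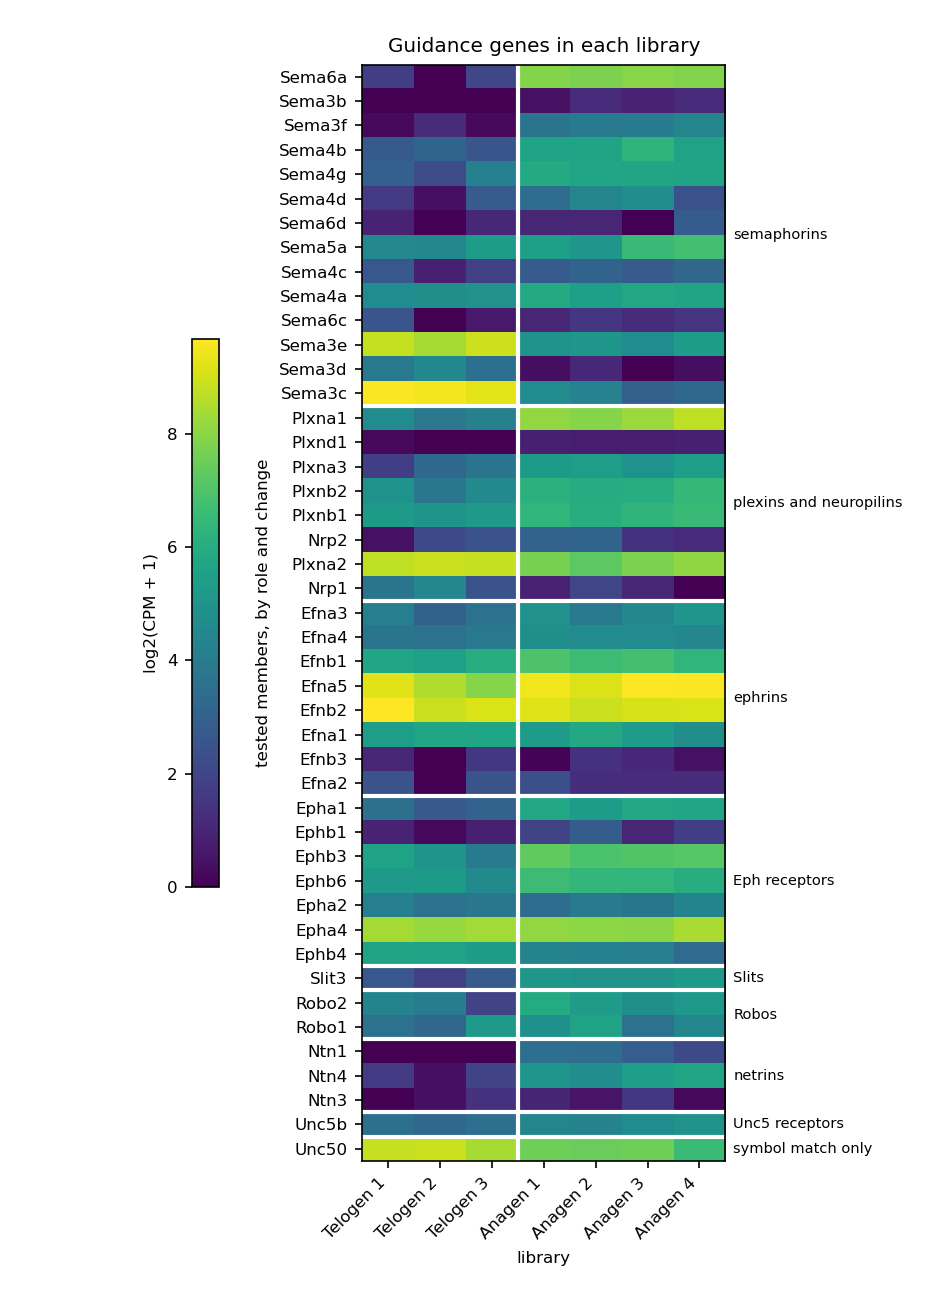
Level of the 45 tested members (rows, grouped by role and ordered by change) in each of the 7 libraries (columns), as log2(CPM + 1) in colour. Sema3c and Sema3e are bright in the 3 Telogen libraries and dim in the 4 Anagen libraries, Sema6a and Plxna1 show the opposite, and Efnb2, Efna5 and Epha4 are bright in all 7.

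The 2 most abundant semaphorin transcripts of the resting follicle, both secreted, fell. Sema3c (NM_013657, mm10 chr5:17574816-17730267) was at 796, 731 and 619 CPM in the Telogen libraries (in the order 1 to 3) and at 24.8, 18.5, 6.89 and 8.58 CPM in the Anagen libraries (1 to 4). All 4 Anagen libraries lay far below the Telogen range, with Anagen 1 and 2 above Anagen 3 and 4, as was also seen for Lgr5 (82.7, 82.2, 24.9 and 34.9 CPM). Its mean went from 716 ± 89.4 (SD, n = 3) to 14.7 ± 8.46 CPM (n = 4), 48.7-fold lower, with a log2 fold change of -5.60 ± 0.43 (SE; edgeR adjusted p = 3.98e-06); without Anagen 1 and 2 the log2 fold change was -6.53. Here and below, "edgeR adjusted p" is the p of edgeR's quasi-likelihood test with Benjamini-Hochberg adjustment over all genes tested.

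Sema3e, the ligand of plexin D1 (NM_011348, chr5:14025276-14256689), was at 458, 329 and 491 CPM in Telogen and 30.1, 33.7, 25.4 and 39.0 CPM in Anagen. The groups were far apart, with little spread within Anagen. Expression fell 13.3-fold, a log2 fold change of -3.73 ± 0.23 (SE; edgeR adjusted p = 9.70e-07), or of -4.32 with an offset for gene length. Sema3d (NM_028882, chr5:12383166-12588943), a further secreted class 3 gene, was at 14.2, 21.9 and 10.5 CPM in Telogen and 0.288, 1.16, 0 and 0.286 CPM in Anagen. It was low in every Anagen library, and Anagen 2 held most of the remaining reads. Sema3d fell 34.0-fold (log2 fold change -5.09 ± 0.82, SE; edgeR adjusted p = 0.000523), or by 6.29 on the log2 scale without Anagen 2.

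The start regions of Sema3c and Sema3e, the 2 falling members with the smallest adjusted p, are shown, and they differ in base composition. Each runs from 250 bases before to 50 bases after the RefSeq start on the plus strand of GRCm38.p6 (chr5:17574566-17574865 for Sema3c, chr5:14025026-14025325 for Sema3e), and capitals mark GC boxes (GGGCGG on either strand).
Sema3c: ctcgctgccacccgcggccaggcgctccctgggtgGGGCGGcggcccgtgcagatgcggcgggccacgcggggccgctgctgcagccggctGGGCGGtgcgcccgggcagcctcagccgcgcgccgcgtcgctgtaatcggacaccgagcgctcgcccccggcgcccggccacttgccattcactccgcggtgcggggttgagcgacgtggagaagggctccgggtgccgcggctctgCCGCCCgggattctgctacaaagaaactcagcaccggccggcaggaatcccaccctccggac
Sema3e: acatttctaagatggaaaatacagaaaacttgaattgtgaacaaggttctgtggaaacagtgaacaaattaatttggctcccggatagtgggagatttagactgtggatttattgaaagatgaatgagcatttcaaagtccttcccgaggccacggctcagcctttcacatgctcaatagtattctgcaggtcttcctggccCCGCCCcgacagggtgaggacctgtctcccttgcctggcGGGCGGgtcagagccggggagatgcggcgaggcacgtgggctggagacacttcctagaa
The Sema3c window held 42 CG dinucleotides and 3 GC boxes, and the Sema3e window 11 CG dinucleotides and 2 GC boxes.

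The other secreted semaphorins, Sema3f and Sema3b, neighbours on chromosome 9 with 74.4 kb between them, moved the opposite way at lower levels. Sema3f (NM_011349, chr9:107681502-107710475), a ligand of neuropilin 2, was at 0.178, 1.28 and 0.198 CPM in Telogen and 12.2, 14.9, 15.5 and 20.4 CPM in Anagen. The groups did not overlap, and 8 of the 10 Telogen reads were in Telogen 2. Sema3f rose 26.8-fold (log2 fold change 4.75 ± 0.63, SE; edgeR adjusted p = 0.000133). Without Telogen 2 the ratio was 83.7 (95% counting interval 23.1 to 692). Sema3b had 0 counts in Telogen and 0.360, 1.27, 0.837 and 1.29 CPM in Anagen, at least 5.41-fold higher against a floor of 3 counts over the group (edgeR adjusted p = 0.0181). That bound was 3.41 without Telogen 2, 3.61 without Telogen 1 and 3.79 without Telogen 3, and Sema3b fell below the filter when any single Anagen library was left out.

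Sema6a had the largest rise among the membrane-bound semaphorins. Of 11 such genes 9 were tested; 6 rose, and 0 fell by edgeR's test, by its unadjusted p at 0.05 or in DESeq2. Sema6a (NM_018744, chr18:47245254-47368868), a transmembrane ligand of class A plexins, was at 2.49, 0 and 3.17 CPM in Telogen and 237, 221, 248 and 230.4 CPM in Anagen. The 4 Anagen libraries were close to one another and all far above Telogen. Its log2 fold change was 7.0 ± 0.62 (SE; edgeR adjusted p = 9.62e-06), a 128-fold rise, with 6.38 without Telogen 2 and 7.60 without Telogen 3 on the log2 scale. Sema4b (NM_013659, chr7:80186841-80226524), of the class that binds B plexins, was at 5.70, 7.67 and 4.95 CPM in Telogen and 48.3, 49.3, 79.7 and 46.9 CPM in Anagen. Every Anagen library was above every Telogen library, with Anagen 3 highest. It rose 9.13-fold (log2 fold change 3.19 ± 0.33, SE; edgeR adjusted p = 2.67e-05).

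Among the other class 4 genes, Sema4g rose from 9.16 ± 7.0 to 53.0 ± 4.66 CPM (log2 fold change 2.54 ± 0.45, SE, or 3.35 without Telogen 3; edgeR adjusted p = 0.000952). Sema4a rose from 26.9 ± 1.98 to 51.1 ± 6.93 CPM (0.93 ± 0.23 on the log2 scale, SE; edgeR adjusted p = 0.00742), with an edgeR adjusted p of 0.0533 without Anagen 1 and 2. Sema4d, the ligand of plexin B1, and Sema5a, a transmembrane semaphorin with thrombospondin repeats, passed with groups that overlapped. Sema4d was at 2.14, 0.320 and 5.94 CPM in Telogen and 10.1, 20.01, 26.1 and 4.22 CPM in Anagen (log2 fold change 2.46 ± 0.82, SE; edgeR adjusted p = 0.0288). Its call was lost without Telogen 1, Telogen 2, Anagen 2 or Anagen 3 (edgeR adjusted p = 0.0832, 0.0643, 0.0611 and 0.0818) and without Anagen 1 and 2 together (0.0893), and without Telogen 3 the log2 fold change was 3.65. Sema5a was at 22.4, 21.9 and 39.6 CPM in Telogen and 43.6, 32.4, 93.6 and 109 CPM in Anagen (1.32 ± 0.44 on the log2 scale, SE; edgeR adjusted p = 0.0280). It lost its call without Telogen 1, Telogen 2, Anagen 3 or Anagen 4 (edgeR adjusted p = 0.0862, 0.0870, 0.0769 and 0.0873), and with an offset for gene length, where its log2 fold change was 0.55 (edgeR adjusted p = 0.258). Sema4c (1.28 ± 0.58), Sema6c (-0.25 ± 1.08) and Sema6d (1.57 ± 1.46, log2 fold changes ± SE) did not pass, although Sema4c did without Telogen 1 (2.06; edgeR adjusted p = 0.0216). Of the Sema6d reads 85 were in Anagen 4, without which its log2 fold change was 0.04. Sema5b with 4 counts in Anagen 1 and Sema7a with 3 counts each in Anagen 2 and Anagen 4 were too low to be tested.

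Per kilobase of transcript, secreted members dominated the semaphorin level in Telogen and membrane-bound members in Anagen. Class 3 genes made up 93.3%, 93.8% and 90.6% of the summed semaphorin level in the 3 Telogen libraries and 13.1%, 14.5%, 8.91% and 13.8% in the 4 Anagen libraries. The summed class 3 level was 208 ± 17.7 CPM per kilobase in Telogen and 12.5 ± 1.83 in Anagen, while the membrane-bound sum was 16.7 ± 3.70 and 88.3 ± 8.69. The total over all 16 genes was lower in Anagen, at 93.2 to 110.2 CPM per kilobase against 212 to 245 in Telogen. Sema3c alone gave 57.1% to 69.4% of the sum in Telogen, and Sema6a 32.6% to 34.3% in Anagen.

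**Figure D2:**
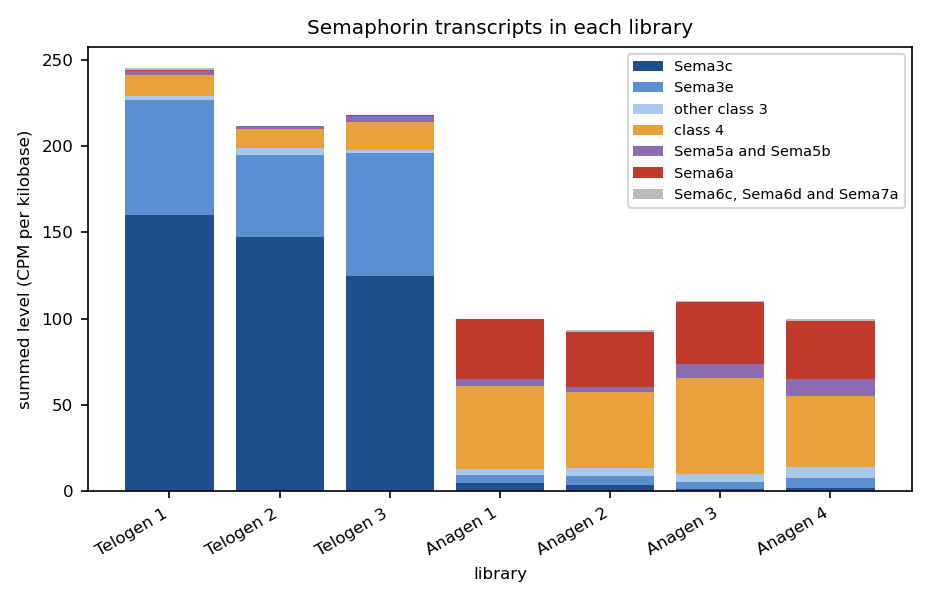
Summed semaphorin level in each library (CPM per kilobase, bars starting at 0), split by gene or class. Sema3c and Sema3e fill most of the 3 Telogen bars, which reach 212 to 245, and class 4 genes and Sema6a most of the 4 Anagen bars, whose class 3 share is 8.91% to 14.5%.

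Among the receptors of semaphorins, 5 of the 8 tested plexins and neuropilins rose and 2 fell. Plxna1 (NM_008881, chr6:89316314-89362613), a signalling partner of neuropilins and receptor of class 6 semaphorins, was at 24.2, 13.3 and 17.6 CPM in Telogen and 277, 240.2, 296 and 428 CPM in Anagen. All Anagen libraries lay well above Telogen, Anagen 4 highest. Expression rose 16.9-fold (log2 fold change 4.08 ± 0.30, SE; edgeR adjusted p = 3.52e-06), with 3.35 under an offset for gene length. Exons of the antisense gene Gm26811 overlap 970 bases (10.7%) of its exons, and whether counting used strand is not given in the sources used here. Plxna2 (NM_008882, chr1:194619829-194816868), a receptor of Sema6a, was at 430.2, 475 and 458 CPM in Telogen and 205, 149.9, 219 and 268 CPM in Anagen. It was lower in each Anagen library and remained well detected there. The fall was 2.16-fold (log2 fold change -1.11 ± 0.21, SE; edgeR adjusted p = 0.00122), with -1.89 under an offset for gene length. Plxna2 made up 73.3% to 77.6% of the plexin and neuropilin level per kilobase in Telogen and 20.8% to 25.8% in Anagen, whereas Plxna1 went from 2.65% to 5.04% up to 39.9% to 46.4%.

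The remaining tested plexins rose from lower levels. Plxna3 (NM_008883, chrX:74329066-74344689) was at 2.49, 8.31 and 12.1 CPM in Telogen and 38.0, 42.3, 30.4 and 42.2 CPM in Anagen, 5.02-fold higher (2.33 ± 0.45 on the log2 scale, SE; edgeR adjusted p = 0.00159). The class B plexins, receptors of class 4 semaphorins, both rose: Plxnb2 (NM_001159521, chr15:89155546-89173951) was at 29.7, 12.8 and 23.4 CPM in Telogen and 73.6, 63.2, 65.2 and 86.7 CPM in Anagen. Its rise was 3.29-fold (log2 fold change 1.72 ± 0.31, SE; edgeR adjusted p = 0.00103). Plxnb1 (NM_172775, chr9:109095436-109119915) was at 37.9, 31.3 and 36.7 CPM in Telogen and 81.8, 64.4, 80.6 and 92.1 CPM in Anagen. None of these 3 genes had overlapping groups. Plxnb1 rose 2.26-fold (log2 fold change 1.17 ± 0.22, SE; edgeR adjusted p = 0.00147), but 0.48 with an offset for gene length (edgeR adjusted p = 0.0683).

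Nrp1, the co-receptor for class 3 semaphorins and VEGF, was at 12.1, 21.7 and 4.56 CPM in Telogen and 0.864, 3.03, 1.03 and 0 CPM in Anagen. The groups did not overlap, but Telogen varied widely. Its log2 fold change was -3.35 ± 0.93 (SE; edgeR adjusted p = 0.0120), or -4.32 without Anagen 2, and it no longer passed without Telogen 2 (-2.73; edgeR adjusted p = 0.0634). Nrp2 was at 0.356, 3.52 and 4.56 CPM in Telogen and 7.28, 7.77, 1.61 and 1.22 CPM in Anagen, high in the same 2 Anagen libraries as the fibroblast markers. Its log2 fold change of 0.67 ± 0.88 (SE) did not pass, and it was -0.98 without Anagen 1 and 2. Plxnd1, the receptor of Sema3e, had 1 count in Telogen and 11 or 12 counts in each Anagen library, a ratio of 12.4 (95% counting interval 2.11 to 499; edgeR adjusted p = 0.0486). Its ratio was 7.80 without Telogen 2, and without Telogen 1, which held the only Telogen count, it became a bound of at least 2.76. It kept its call in none of the 8 alternatives in which it could be tested. Plxna4 had 8, 0 and 6 counts in Telogen and 0 in Anagen (at least 17-fold lower, untested), Plxnc1 20 counts, all in Anagen 2, and Plxnb3 2 and 3 counts in Anagen 2 and 3.

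**Figure D3:**
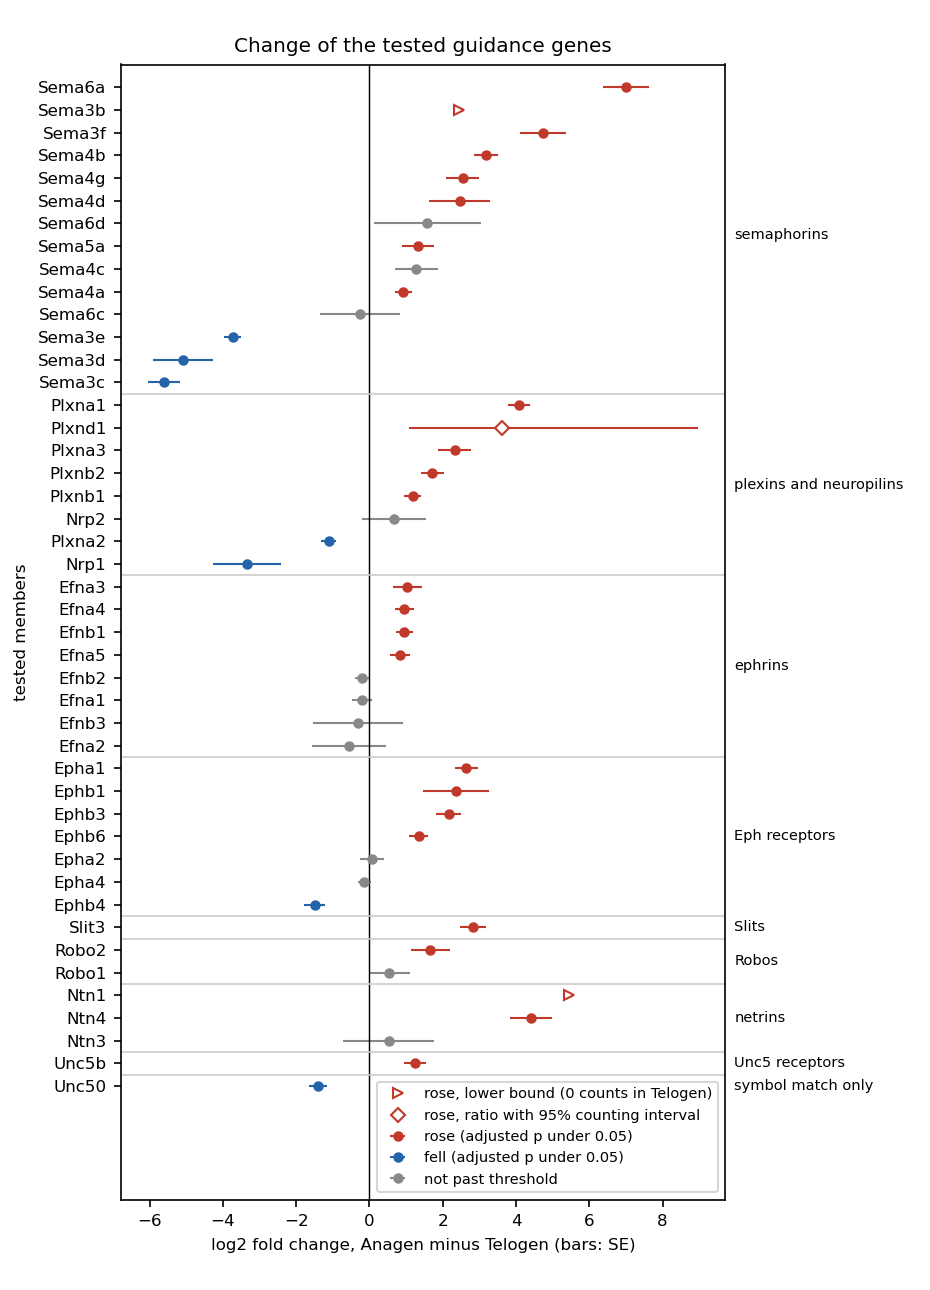
Log2 fold change (Anagen minus Telogen) of the 45 tested members, by role; filled points have SE bars, open triangles are lower bounds for Sema3b and Ntn1, which had 0 counts in Telogen, and the open diamond is the Plxnd1 ratio with its 95% counting interval. Red points (26) rose, blue points (7) fell and grey points (12) did not pass; the class 3 genes Sema3c, Sema3d and Sema3e lie farthest to the left.

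Ephrin transcripts changed by small amounts. All 8 were tested. Of these 4 rose, none by more than 2.05-fold, and 0 fell by edgeR's test, by its unadjusted p at 0.05 or in DESeq2. The share that passed in either direction, 50%, was near the 49.5% of all genes, of which 25.8% rose and 23.7% fell. Efnb2, a transmembrane ligand of EphB receptors, was the ephrin with the highest level per kilobase in Telogen (143 CPM per kilobase, and 126 in Anagen). Its libraries were at 821, 484 and 555 CPM in Telogen and 587, 477, 545 and 562 CPM in Anagen, overlapping, with Telogen 1 highest. The log2 fold change was -0.19 ± 0.20 (SE; edgeR adjusted p = 0.460), so no difference was detectable, although with an offset for gene length it was -0.58 (edgeR adjusted p = 0.0348). Efna5 (NM_207654, chr17:62602957-62881317), anchored by a lipid to the membrane like all ephrin-A proteins, was at 603, 372 and 239.9 CPM in Telogen and 712, 570.0, 819 and 781 CPM in Anagen. Telogen 1 lay within the Anagen range. Its rise was 1.78-fold (log2 fold change 0.83 ± 0.28, SE; edgeR adjusted p = 0.0312), and the call was lost without Telogen 2, Telogen 3, Anagen 1, Anagen 3 or Anagen 4 (edgeR adjusted p = 0.0863, 0.0764, 0.0599, 0.0773 and 0.0726). It was also lost without Anagen 1 and 2 together (edgeR adjusted p = 0.0552) and with an offset for gene length, which left a log2 fold change of 0.33 (edgeR adjusted p = 0.382).

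Efnb1 (NM_010110, chrX:99136061-99149022), a transmembrane ephrin, was at 52.5, 45.9 and 64.4 CPM in Telogen and 125, 99.2, 113 and 82.7 CPM in Anagen. Its groups did not overlap, and it rose 1.93-fold (log2 fold change 0.95 ± 0.23, SE; edgeR adjusted p = 0.00549). Efna4 and Efna3 lie 10.5 kb apart on chromosome 3, with Efna1 35.3 kb from Efna3. Efna4 (NM_007910, chr3:89333393-89338028) was at 12.3, 11.3 and 14.1 CPM in Telogen and 27.2, 24.3, 24.4 and 21.4 CPM in Anagen, 1.94-fold higher (0.95 ± 0.27 on the log2 scale, SE; edgeR adjusted p = 0.0125). Without Anagen 1 and 2 neither passed (edgeR adjusted p = 0.0622 for Efnb1 and 0.117 for Efna4). Efna3 (NM_010108, chr3:89314951-89322879) was at 16.9, 7.03 and 11.5 CPM in Telogen and 29.2, 14.1, 21.8 and 31.9 CPM in Anagen, with Anagen 2 inside the Telogen range. It passed only narrowly (log2 fold change 1.04 ± 0.39, SE; edgeR adjusted p = 0.0478) and lost its call in 9 of 15 alternatives, among them without Telogen 2, Telogen 3, Anagen 1, Anagen 3 or Anagen 4 (edgeR adjusted p = 0.139, 0.0955, 0.116, 0.0749 and 0.124). Antisense genes overlap 14.1% of the exons of Efna3 and 10.5% of those of Efna4. Their neighbour Efna1 was at 47.1 ± 5.77 and 40.8 ± 12.7 CPM and did not pass (-0.21 ± 0.28, SE), nor did Efna2 (-0.56 ± 1.008) or Efnb3 (-0.31 ± 1.22).

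Among the Eph receptors, of 7 tested, 4 rose, 1 fell and 2 did not pass. Epha4, which binds both ephrin classes (NM_007936, chr1:77367185-77515088), had the highest Eph level per kilobase in both groups (49.6 CPM per kilobase in Telogen and 45.1 in Anagen). Its libraries were at 329.9, 292 and 323 CPM in Telogen and 274, 262, 256 and 353 CPM in Anagen, with Anagen 4 the highest of all 7. The log2 fold change of -0.14 ± 0.18 (SE; edgeR adjusted p = 0.548) did not pass, but with an offset for gene length it was -0.70 (edgeR adjusted p = 0.00407). Epha1 (NM_023580, chr6:42358487-42373268), an epithelial Eph receptor, was at 11.04, 5.43 and 7.33 CPM in Telogen and 53.5, 39.3, 53.3 and 52.3 CPM in Anagen. All Anagen values exceeded all Telogen values. Expression rose 6.25-fold (log2 fold change 2.64 ± 0.32, SE; edgeR adjusted p = 7.61e-05), and exons of Zyx on the other strand overlap 6.0% of its exons.

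The Epha1 start region, that of the Eph receptor with the smallest adjusted p, is printed 5′ to 3′ on the gene's minus strand (GRCm38.p6 chr6:42373219-42373518, RefSeq), with GC boxes in capitals.
Epha1: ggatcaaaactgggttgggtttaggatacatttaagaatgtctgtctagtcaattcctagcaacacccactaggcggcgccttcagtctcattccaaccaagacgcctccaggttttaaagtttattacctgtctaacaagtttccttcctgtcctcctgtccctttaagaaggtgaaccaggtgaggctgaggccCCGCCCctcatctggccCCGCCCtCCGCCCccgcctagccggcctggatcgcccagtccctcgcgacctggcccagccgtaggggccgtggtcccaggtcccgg
It held 14 CG dinucleotides and 3 GC boxes.

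Within the B receptors, Ephb3 and Ephb6 rose and Ephb4 fell. Ephb3 (NM_010143, chr16:21204795-21223304), a receptor of transmembrane ephrins, was at 47.7, 30.8 and 14.7 CPM in Telogen and 157, 122, 133 and 143 CPM in Anagen, 4.47-fold higher (2.16 ± 0.35 on the log2 scale, SE; edgeR adjusted p = 0.000512). Ephb6 (NM_001146351, chr6:41605482-41620507), which lacks kinase activity, was at 35.6, 37.7 and 22.98 CPM in Telogen and 98.2, 83.2, 82.2 and 64.4 CPM in Anagen, 2.55-fold higher (log2 fold change 1.35 ± 0.26, SE; edgeR adjusted p = 0.00154). Ephb4 (NM_001159571, chr5:137350109-137374522), the receptor paired with ephrin-B2, was at 49.0, 48.1 and 39.8 CPM in Telogen and 19.1, 18.2, 17.8 and 9.44 CPM in Anagen. These 3 receptors had no overlap between groups. Ephb4 fell 2.83-fold (log2 fold change -1.50 ± 0.29, SE; edgeR adjusted p = 0.00176). Per kilobase, the summed EphB level was 18.9 to 32.3 CPM in Telogen and 54.3 to 68.8 CPM in Anagen, and that of EphA 50.8 to 59.7 and 57.2 to 76.5 CPM.

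Ephb1 (NM_173447, chr9:101922128-102354693) was low, at 0.890, 0.160 and 0.793 CPM in Telogen and 2.95, 6.17, 1.03 and 2.43 CPM in Anagen (log2 fold change 2.36 ± 0.90, SE; edgeR adjusted p = 0.0478). Its groups did not overlap, but it lost its call in 11 of 14 alternatives, and leaving out any library other than Anagen 3 gave an edgeR adjusted p of 0.0624 to 0.141. Epha2, a receptor of epidermal keratinocytes, was at 13.8 ± 2.98 and 14.4 ± 4.07 CPM and did not pass (0.07 ± 0.33, SE). Epha7 with 9 counts in Telogen 2 and 1 count in Anagen 4, and Ephb2 with 0 counts in Telogen and 1, 15, 3 and 11 in Anagen, were too low to be tested.

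**Figure D4:**
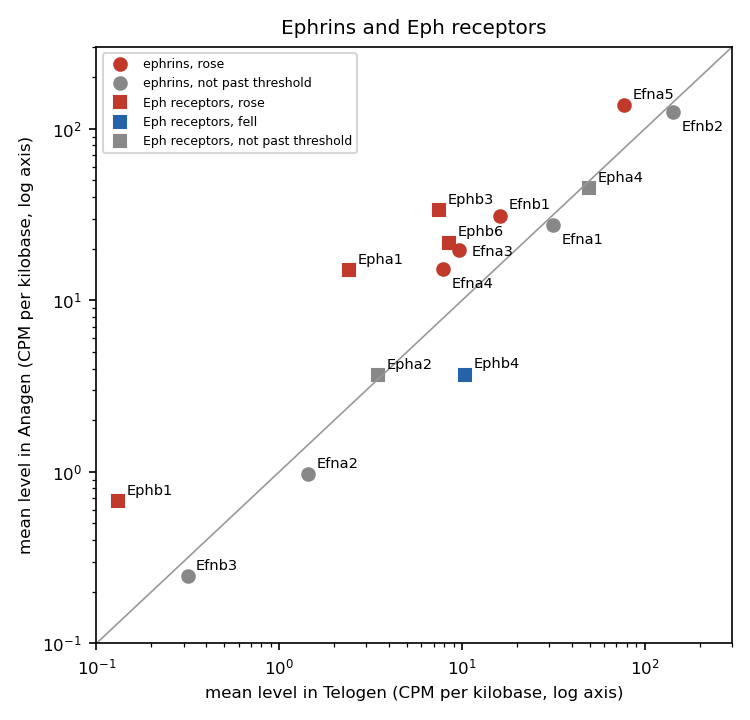
Mean level of the 15 tested ephrins (circles) and Eph receptors (squares) in Telogen against Anagen, in CPM per kilobase on log axes; the line marks equal levels. Efnb2 (143 and 126) and Epha4 (49.6 and 45.1) lie near the line, Epha1 and Ephb3 above it and Ephb4 below it.

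Of the Slit and Robo genes, Slit3 changed most. Slit3, a secreted Robo ligand (NM_011412, chr11:35121456-35708507), was at 5.16, 2.56 and 5.94 CPM in Telogen and 33.9, 30.2, 29.3 and 36.0 CPM in Anagen. The groups were far apart, and the Anagen libraries were close together. Its level rose 7.13-fold (log2 fold change 2.83 ± 0.35, SE; edgeR adjusted p = 9.18e-05). Slit2 had 2 and 5 counts in Anagen 1 and 2, 0 elsewhere, and was not tested. The receptor gene Robo2 (NM_175549, chr16:73892306-74410912) was at 19.4, 16.1 and 2.97 CPM in Telogen and 61.3, 40.1, 27.2 and 34.8 CPM in Anagen, with no overlap. Robo2 rose 3.17-fold (log2 fold change 1.66 ± 0.53, SE; edgeR adjusted p = 0.0227), but without Anagen 1, its highest library, the edgeR adjusted p was 0.0661, without Anagen 1 and 2 it was 0.150, and with an offset for gene length the log2 fold change was 0.95 (edgeR adjusted p = 0.171). Robo1 was at 11.6, 8.31 and 35.5 CPM in Telogen and 28.4, 46.5, 11.7 and 20.7 CPM in Anagen, overlapping. It did not pass (0.54 ± 0.55, SE; edgeR adjusted p = 0.439), although it did without Telogen 3 (1.44; edgeR adjusted p = 0.0484). All 17 counts of Robo3 were in Anagen 2. Of the 3 tested genes 0 fell by edgeR's test, by its unadjusted p at 0.05 or in DESeq2.

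Epha1 and Slit3 had the smallest adjusted p among rising members whose RefSeq start matched that of the gene table. The Slit3 start region (GRCm38.p6 chr11:35121206-35121505, plus strand, RefSeq) is therefore also shown, with GC boxes in capitals.
Slit3: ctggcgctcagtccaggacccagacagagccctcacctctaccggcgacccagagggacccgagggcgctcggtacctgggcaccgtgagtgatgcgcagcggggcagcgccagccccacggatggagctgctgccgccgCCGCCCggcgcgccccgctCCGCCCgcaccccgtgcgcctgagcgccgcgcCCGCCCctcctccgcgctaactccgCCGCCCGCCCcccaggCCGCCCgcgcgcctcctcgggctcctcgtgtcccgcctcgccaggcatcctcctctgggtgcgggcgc
It held 41 CG dinucleotides and 6 GC boxes.

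Netrin transcripts were low in Telogen, at 0.197 to 1.55 CPM per kilobase in sum against 12.5 to 21.97 in Anagen. Ntn1 (NM_008744, chr11:68209364-68386826), the netrin that binds Dcc, neogenin and Unc5 receptors, had 0 counts in all 3 Telogen libraries and was at 10.5, 9.98, 6.50 and 3.57 CPM in Anagen. It was present in every Anagen library and at least 43.8-fold higher against the floor of 3 counts over the group (edgeR adjusted p = 0.000292); without 1 Telogen library at a time the bound was 27.6 to 30.7. Ntn4 (NM_021320, chr10:93641049-93745972), a netrin of basement membranes that binds laminin, was at 2.14, 0.320 and 2.97 CPM in Telogen and 32.3, 25.9, 42.2 and 51.6 CPM in Anagen. The groups were far apart. Its rise was 21.4-fold (log2 fold change 4.42 ± 0.57, SE; edgeR adjusted p = 0.000116). Per kilobase Ntn4 made up 85.4% to 97.0% of the netrin level in Anagen. Ntn3 stayed at or below 1.996 CPM in all libraries and did not pass (0.53 ± 1.23, SE).

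Unc5b (NM_029770, chr10:60762595-60831581), a netrin receptor, was at 10.9, 8.47 and 10.7 CPM in Telogen and 20.96, 19.1, 25.3 and 29.5 CPM in Anagen, without overlap. It rose 2.37-fold (log2 fold change 1.24 ± 0.30, SE; edgeR adjusted p = 0.00549). Unc5c had 0, 18 and 8 counts in Telogen and 0 in Anagen (at least 31.5-fold lower, untested), and Unc5a 4 and 7 counts in Anagen 1 and 3. Among the 4 tested netrin and Unc5 genes 0 fell by edgeR's test, by its unadjusted p at 0.05 or in DESeq2. Neo1, which encodes the receptor neogenin, was at 80.5 ± 26.5 and 92.2 ± 8.84 CPM and did not pass (0.20 ± 0.25, SE). Unc50, matched by its letters alone, fell 2.64-fold (log2 fold change -1.40 ± 0.25, SE; edgeR adjusted p = 0.000957), from 460.3, 474 and 342 CPM to 185, 177, 187 and 95.1 CPM.

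**Figure D5:**
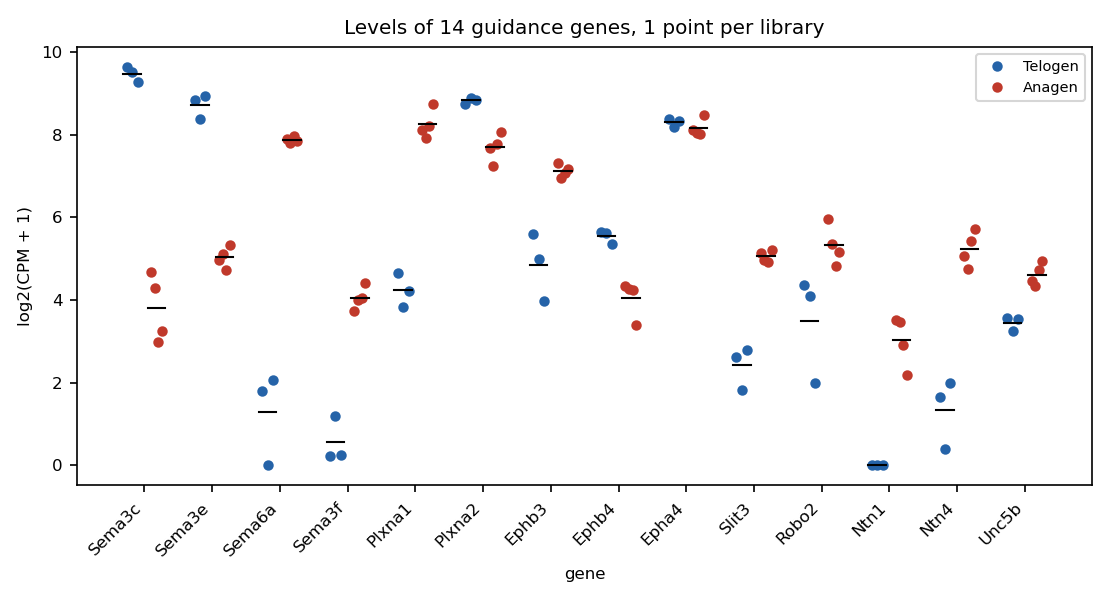
Level of 14 guidance genes as log2(CPM + 1), 1 point per library (Telogen blue, n = 3; Anagen red, n = 4), with black lines at the group means of the log2 values. The 2 colours are apart for every gene shown but Epha4, whose Anagen points (256 to 353 CPM) span the Telogen points (292 to 329.9 CPM).

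Binding partners and cytoplasmic effectors of these receptors split in both directions. Of 83 listed symbols 77 were in the table and 70 were tested, of which 26 rose and 14 fell (57.1% passed, median log2 fold change 0.27). With an offset for gene length 17 rose and 21 fell, and no share over all genes is given for that fit. Other ligands and co-receptors passed in 72.2% of 18 tested genes (8 rose, 5 fell) and cytoplasmic effectors in 51.9% of 52 (18 rose, 9 fell), the latter near the 49.5% of all genes. Pak1, a kinase activated by Rac and Cdc42, rose from 28.4 ± 3.0 to 175 ± 15.6 CPM (log2 fold change 2.63 ± 0.20, SE; edgeR adjusted p = 4.22e-06). Of the Mical enzymes, which oxidise actin and bind plexins, 2 rose, Mical2 from 24.2 ± 5.96 to 197 ± 33.2 CPM (3.02 ± 0.26, SE; edgeR adjusted p = 7.23e-06) and Mical3 from 14.8 ± 6.48 to 114 ± 15.4 CPM (2.95 ± 0.34, SE; edgeR adjusted p = 5.52e-05), while Mical1 at 5.03 ± 2.99 and 3.79 ± 0.71 CPM did not pass (-0.41 ± 0.56, SE). Sdc1, a heparan sulfate proteoglycan, rose from 365 ± 80.1 to 1669 ± 149 CPM (2.19 ± 0.20, SE; edgeR adjusted p = 1.12e-05). Rgma, a ligand of neogenin, rose from 18.99 ± 6.79 to 107 ± 17.5 CPM (2.49 ± 0.30, SE; edgeR adjusted p = 7.60e-05).

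Other partners fell. Nrcam, an adhesion molecule of class 3 semaphorin receptor complexes, fell from 26.0 ± 9.15 to 0.283 ± 0.178 CPM (log2 fold change -6.44 ± 0.51, SE; edgeR adjusted p = 5.08e-06). Tns1, a focal adhesion tensin, fell from 155 ± 30.5 to 8.41 ± 3.25 CPM (-4.20 ± 0.33, SE; edgeR adjusted p = 4.27e-06). Itga6, the alpha 6 integrin of the basal keratinocyte, fell from 848 ± 203 to 189 ± 29.9 CPM (-2.16 ± 0.21, SE; edgeR adjusted p = 1.83e-05). Dock1, a Rac activator recruited to Dcc, fell from 315 ± 53.0 to 69.5 ± 16.7 CPM (-2.18 ± 0.23, SE; edgeR adjusted p = 2.75e-05). Of other adhesion molecules on the list, Flrt3, which binds Unc5 receptors, rose 4.47-fold (2.16 ± 0.28, SE; edgeR adjusted p = 0.000132) and L1cam, a neuropilin partner, 1.89-fold (0.92 ± 0.28, SE; edgeR adjusted p = 0.0178; 0.0576 without Telogen 1 and 0.0560 without Telogen 2), while Chl1 did not pass (0.05 ± 0.42, SE).

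Start regions of the same window were found for 49 of the 56 members among 32851 in the RefSeq table. Those of Sema4d and Sema6d lie 37064 and 43285 bases from the start the gene table gives, and that of Robo2 lies 913 bases from it. Their median was 23 CG dinucleotides, against 7 over the whole table, with 23 for the 21 members that rose and 14 for the 7 that fell. A GC box (GGGCGG, both strands) was in 37 of 49 windows (75.5%) against 35.7% of all windows, including 16 of 21 that rose and 6 of 7 that fell. TATAAA was in 2 of 49 (4.1%) against 13.6%, CCAAT in 12 of 49 (24.5%) against 37.4%, CACGTG in 1 of 49 against 7.2% and TGANTCA in 0 of 49 against 7.8%. Each motif was searched on both strands, and matches of different motifs may overlap. These are matches of letters in a window, with no test. The 32851 windows were not limited to genes of the gene table and may hold several per gene, whereas each member has 1.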

How the data were processed

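The authors deposited a single gene table with raw counts and RPKM for each of the 7 libraries, per the file headers. The deposited RPKM could be recomputed from the counts in 107905 of 107905 values (relative tolerance 1e-09), so only counts were used. Reads were placed on mm10, per the submitters' processing notes, and RNA was amplified with the Ovation RNA-Seq System V2, per the labels' protocols. For the aligner, counting tool and strand, nothing is given in the sources used here. Starts in the table were 0-based and are given 1-based. No libraries agreed within sampling noise (chi-square per degree of freedom 22.5 to 67.3 within groups).

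edgeR 4.0.16 (R 4.3.3) fitted all genes with TMM scaling, a robust quasi-likelihood test and no covariate, after its filter (minimum count 10, minimum total 15). P-values were adjusted by Benjamini-Hochberg over 12266 genes, threshold 0.05. Fold changes are Anagen over Telogen, and SE is the log2 fold change over the square root of F. A group with 0 counts gives a bound against 3 counts over the group; 1 to 3 counts give a ratio with an exact 95% binomial interval. These bounds and intervals cover counting error only. The fit was tested on simulated data. Alternatives were DESeq2 1.42.0, other scaling and filters, a gene length offset, thinning, a replicate block, a minimum fold of 2 and leaving out libraries.

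Members and lists were chosen with earlier results of these data known. Where groups are said not to overlap, this describes single genes, and no share over all genes is given beside it. Per role, up to 5 passing members with the smallest adjusted p and the most abundant tested member are given in every library; other genes were named after their values were seen. Exon overlaps came from GENCODE M21 and start regions from RefSeq (GRCm38.p6).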

Additional observations from a re-analysis of the deposited data

Results flagged for a closer look

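In 5 of the 45 tested members 1 Anagen library stood apart from the other 3 by Dixon's test at the 95% level; chance flags about 1 in 20 such groups. Efna2 was at 4.11 CPM in Anagen 1, against 1.35 to 1.43 CPM in the others. Epha1 was at 39.3 CPM in Anagen 2, against 52.3 to 53.5 CPM. Sema4b was at 79.7 CPM in Anagen 3, against 46.9 to 49.3 CPM. In Anagen 4, Ephb4 was at 9.44 CPM (17.8 to 19.1 CPM in the others) and Unc50 at 95.1 CPM (177 to 187 CPM). Epha1, Sema4b, Ephb4 and Unc50 stayed past the threshold without the library named, and Efna2 passed neither with nor without it.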

How the results depend on the processing

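Of the 33 members past the threshold, 20 stayed past it in all 15 alternatives that gave single-gene values, and none of the 33 changed direction in any of them. The 26 members that rose became 16 without Anagen 1 and Anagen 2, where fewer samples are left, and 20 to 23 without 1 library at a time. The length offset took the calls of Efna5, Ephb1, Plxnb1, Plxnd1, Robo2 and Sema5a, and brought Efnb2 and Epha4 past the threshold as falls. The 8 ephrin and Eph genes that rose became 5 with the replicate block, 3 without Anagen 1 and 2, 5 with a fold change of at least 2 and 5 to 7 without 1 library at a time, while the 1 that fell became 3 with the length offset. The 2 Slit and Robo genes that rose became 1 without Anagen 1 and 2, 1 with the length offset and 1 to 3 without 1 library at a time. Of the netrin and Unc5 genes, 1 fell without the filter on low counts, and 0 to 1 without 1 library at a time. The partner list had 17 rises with the length offset. No share over all genes is given beside these counts, and the cause of these moves was not tested.

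Values below the threshold that changed sign were Efna1 (0.00) with the length offset, Efna2 (0.19), Sema6c (0.84) and Sema6d (-0.11) with the replicate block, and Epha2 with both (-0.28 and -0.11). Without 1 library at a time the log2 fold change spanned -0.33 to 0.07 for Efnb2 (positive without Telogen 1), -0.90 to 0.61 for Efnb3 (positive without Telogen 3 or Anagen 1), -0.14 to 0.26 for Epha2 (negative without Telogen 2 or Anagen 4), -0.05 to 2.38 for Ntn3 (negative without Telogen 1) and -0.84 to 2.38 for Sema6c (positive without Telogen 1). Nrp2 (-0.98) and Robo1 (-0.19) changed sign without Anagen 1 and 2, and Robo1 (-0.01) with the length offset.

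Same-numbered Telogen and Anagen libraries deviated together with correlations of 0.022, 0.114 and -0.067, so their numbers do not pair them. With the replicate block 21 members rose and 7 fell (Efna3, Efna5, Ephb1, Plxnd1 and Sema3b were no longer past the threshold), and over all genes 2497 and 2289. Telogen depth limits the low genes: a count of 0 there allows up to 0.480 to 0.594 CPM.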
